A study of Mus musculus with 98 samples.

Results

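Knockdown of Virma in differentiating mouse cells was followed over 1, 2 and 3 h of actinomycin D, using the 6 siVirma libraries and the 6 siNC1 control libraries of those hours, which are 12 of the 98 samples of the series. The cells were mouse TBLC (totipotent blastomere-like cells) grown for 3 days in a medium labelled SLM, called diffTBLC in the labels. Every library of both arms was treated with actinomycin D, so the arms differ by the siRNA: siVirma against siNC1, a control siRNA, with 2 replicates at each of 1, 2 and 3 h. Genotype and the dose of actinomycin D are not given in the labels. RNA from these cultures was read as total RNA after TRIzol extraction. The 4 libraries at 0 h of the same arms were left out of the fit because the siNC1 libraries at 0 h stood apart from the later siNC1 libraries. For comparison, 4 steady-state libraries (siNC and siVirma, diffTBLC, no actinomycin D in their labels) were read. The fit of those also held the siMettl3 libraries of the same set, which entered its scaling, filter and estimate of spread. A further 12 libraries came from another course (siIgf2bp3 and siNC2, 1 to 3 h of actinomycin D). Nothing says that replicates came from separate cultures, so p-values measure the scatter of these libraries only, and that scatter may be technical.

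Virma (also called Kiaa1429) is a scaffold subunit of the nuclear complex that writes N6-methyladenosine (m6A) on mRNA, in which Mettl3 is the methyltransferase, Mettl14 its partner and Wtap, Zc3h13 and Rbm15 are accessory subunits. m6A is read by proteins of the Ythdf, Ythdc and Igf2bp families, some of which are known for promoting decay of the marked mRNA and others for stabilising it. Actinomycin D blocks transcription, so that the fall of an mRNA afterwards reflects its decay. Primitive endoderm (PrE) is the extraembryonic lineage of the blastocyst set up by Gata6, Gata4, Sox17 and related factors, and its cells lay down basement membrane and take up nutrients by endocytosis.

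The 12 libraries held 11433895 to 21000573 counts each, and levels are given as CPM (counts scaled to a common library size) and the trimmed mean of M values, TMM. The arms did not move through the hours alike. In siNC1 the share of counts from cytosolic ribosomal protein genes was 9.97 to 10.1% at 1 h, 13.8 to 14.3% at 2 h and 12.2% at 3 h, after 17.8 to 18.3% at 0 h. In siVirma it was 12.5 to 12.9%, 15.1 to 15.2% and 15.1 to 15.6%, after 11.5 to 11.8% at 0 h. The correlation of log CPM over genes between single 0 h and 1 h libraries averaged 0.967 in siNC1 and 0.993 in siVirma. Of 13501 genes tested, 6247 (46.3%) in siNC1 and 701 (5.19%) in siVirma departed at 2 h from the mean of 1 and 3 h (edgeR quasi-likelihood test, adjusted p under 0.05). The difference between arms departed in this way for 2500 genes (18.5%), changed from 1 to 2 h for 2055 (15.2%) and from 2 to 3 h for 1928 (14.3%). What this departure contributes to each difference below was not tested, so the value at 2 h, where the median absolute difference between arms was smallest (0.226 on the log2 scale against 0.308 at 1 h and 0.332 at 3 h), is given beside the main groups.

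**Figure D1:**
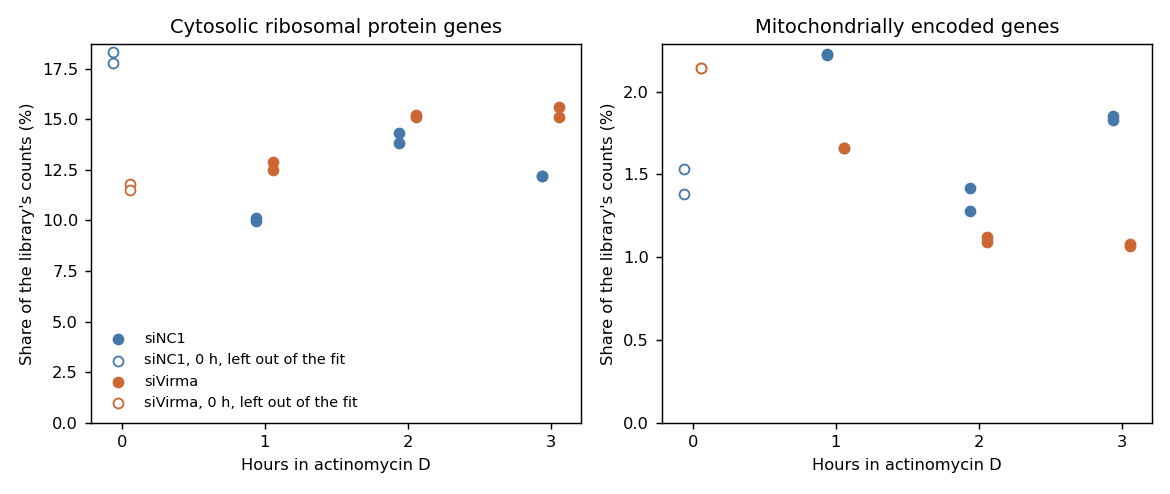
Share of each library's counts (%) from cytosolic ribosomal protein genes (left) and mitochondrially encoded genes (right) against hours in actinomycin D; each point is a library, filled points entered the fit and open points at 0 h did not. The siNC1 ribosomal protein share falls from 17.8 to 18.3% at 0 h to 9.97 to 10.1% at 1 h, and the siVirma share stays between 11.5 and 15.6%.

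Virma mRNA was lower in every siVirma library. It was at 62.5 and 59.1 CPM at 1 h, 50.0 and 50.3 CPM at 2 h and 59.9 and 58.4 CPM at 3 h in siNC1, against 30.7 and 30.7, 28.1 and 25.7, and 24.2 and 26.2 CPM in siVirma. The arms did not overlap at any hour, and averaged over the hours Virma was lower by a log2 difference of -1.03 ± 0.05 (SE, 2 libraries per arm and hour; edgeR adjusted p = 9.923e-17). At 0 h, scaled on all 16 libraries, Virma stood at 40.7 and 41.7 CPM in siNC1 and 34.7 and 33.6 CPM in siVirma, a smaller gap. In the steady-state libraries the log2 difference was -0.50 ± 0.085 (adjusted p = 1.885e-06). Virma was also lower, by -0.50, in siIgf2bp3 against siNC2, where it was not targeted.

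Of the other subunits and erasers, most did not pass the test. Among the 13 genes listed as m6A writers and erasers, 3 rose and 2 fell. Their median was 0.0218, beside 0.00264 for all genes. With libraries scaled to ribosomal protein counts, which moves all genes together, it was -0.229 beside -0.248. Mettl3 (-0.03), Mettl14 (0.02) and Wtap (0.06) did not pass. Zc3h13, which anchors the complex in the nucleus, fell by -0.30, and Virma itself made up the other fall. The fall of Zc3h13 was not seen at 0 h, with 31.8 and 34.9 CPM in siNC1 and 52 and 50.6 CPM in siVirma (scaled on all 16 libraries). At steady state Zc3h13 was at 121 and 112 CPM in siNC and 128 and 121 CPM in siVirma. The 3 that rose were Rbm15 (0.19), which brings the complex to RNA, and Mettl5 (0.12) and Trmt112 (0.41), which form a methyltransferase of ribosomal RNA. Under that scaling Mettl3 (-0.28), Mettl14 (-0.23) and Wtap (-0.19) passed as falls, near the median of all genes, and Rbm15 (-0.066) did not pass.

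In all, 9270 of the 13501 genes tested (68.7%) differed between the arms over 1 to 3 h, 4589 (34.0%) higher and 4681 (34.7%) lower in siVirma. With libraries scaled to the summed ribosomal protein counts the split became 1871 higher and 7436 lower, and the median over all genes moved from 0.00264 to -0.248. At least a 2-fold difference was reached by 384 higher genes (2.84%) and 325 lower genes (2.41%). With shares this large, a count of list members is read against 34.0% and 34.7%.

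The transcription factors of primitive endoderm were lower in siVirma, at all 3 hours and by similar amounts. Of 12 PrE regulators, 11 fell and 1 rose, with a median log2 difference of -1.29 (all genes 0.00264). The share of all genes called lower was 28.5% at 1 h, 22.8% at 2 h and 32.1% at 3 h, and 11, 11 and 10 of the 12 fell at those hours. The median was -1.22 at 1 h, -1.25 at 2 h and -1.23 at 3 h. In bulk RNA fewer PrE cells and less of each mRNA per cell cannot be told apart.

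Gata6, a zinc finger factor that begins the PrE programme, was at 78.1 and 78.3 CPM at 1 h, 52.8 and 50.8 CPM at 2 h and 29.5 and 33.3 CPM at 3 h in siNC1. In siVirma it was at 28.6 and 29.4, 18.3 and 17.5, and 10.7 and 10.9 CPM. Every siVirma library lay below every siNC1 library, including those at 3 h in siNC1. The averaged log2 difference was -1.49 ± 0.046 (edgeR adjusted p = 5.031e-21). Gata4, which acts with Gata6 in this lineage, ran from 164 and 164 CPM at 1 h to 124 and 118 at 2 h and 88.4 and 89.7 at 3 h in siNC1. In siVirma it ran from 63.6 and 66.9 to 49.3 and 47.9 and to 33.5 and 34.5 CPM. Its highest siVirma library stayed under its lowest siNC1 library, with a difference of -1.34 ± 0.038 (adjusted p = 6.488e-22).

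Sox17 and Sox7 are SRY-box factors of endoderm. Sox17 was at 20.6 and 19.0, 9.03 and 9.52, and 5.64 and 5.31 CPM in siNC1, and at 11.4 and 11.3, 5.15 and 4.63, and 3.24 and 3.37 CPM in siVirma. The arms were apart at each hour, but the 1 h siVirma libraries lay above the later siNC1 libraries (-0.83 ± 0.070, edgeR adjusted p = 2.232e-11). Sox7 was at 36.7 and 34.1, 13.4 and 13.9, and 5.77 and 6.07 CPM in siNC1, and at 12 and 12.1, 5.09 and 4.32, and 2.16 and 1.35 CPM in siVirma. At 1.35 to 2.16 CPM Sox7 was the lowest of these 5 at 3 h, and its averaged difference was -1.57 ± 0.072 (edgeR adjusted p = 3.307e-17).

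Pdgfra, the receptor for platelet-derived growth factor used to mark and sort PrE, changed most over 1 to 3 h. It was at 80.6 and 75.4, 56.1 and 56.6, and 56.4 and 59.5 CPM in siNC1, against 20 and 19.9, 16 and 13.6, and 13.9 and 15.0 CPM in siVirma. The difference was -1.96 ± 0.047 (edgeR adjusted p = 3.809e-23), with every siVirma library below every siNC1 library. At 0 h the order was another one (scaled on all 16 libraries). Pdgfra was then at 48.3 and 50.4 CPM in siNC1 and 21.3 and 23 CPM in siVirma. Sox17 was proportionally further apart, at 45.8 and 39.3 CPM in siNC1 and 15.4 and 16.9 CPM in siVirma. The nuclear receptor gene Hnf4a fell by an averaged log2 difference of -1.35, and the forkhead genes Foxq1 and Foxa2 by -1.23 and -0.67. Zfpm1, a cofactor of GATA proteins, was lower by -0.78 and Cited1 by -0.61. Klf2 was the member that rose, by 1.06, from 34.8 and 32.7 CPM in siNC1 to 73.4 and 71.0 CPM in siVirma at 1 h. Klf2 is also a naive pluripotency factor, and its log2 difference between PrE-T and EPI-T cells, the study's primitive endoderm and epiblast products of TBLC, was -2.44, that is higher in EPI-T.

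**Figure D2:**
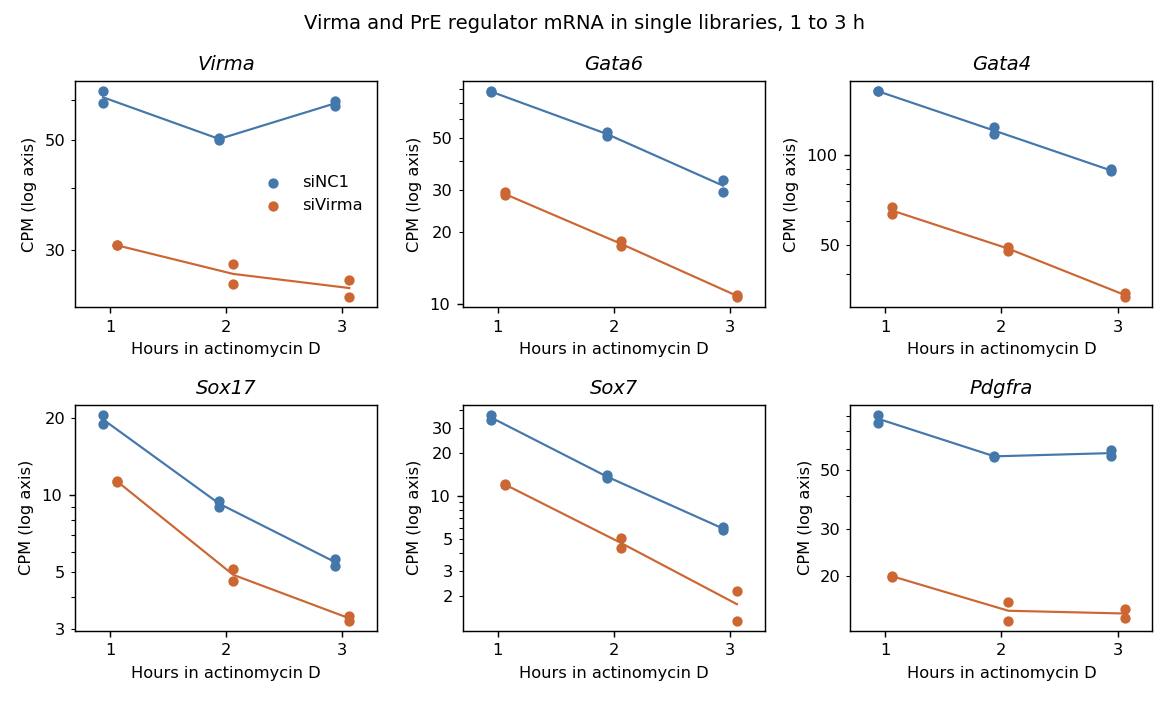
CPM on log axes against hours in actinomycin D for Virma, Gata6, Gata4, Sox17, Sox7 and Pdgfra; each point is a library and lines join the means of 2 libraries. The siVirma points lie below the siNC1 points at every hour in all 6 panels, and the PrE regulator lines of both arms run down nearly in parallel.

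Products of PrE cells were lower as well. Of 17 genes for basement membrane and endocytosis, 15 fell and 2 rose, with a median of -1.09 over the hours and -1.01 at 2 h. Col4a1, a chain of type IV collagen, was at 1160 and 1240, 1060 and 1110, and 1470 and 1540 CPM in siNC1 and at 456 to 505 CPM in the 6 siVirma libraries (-1.40 ± 0.0459, edgeR adjusted p = 1.833e-20). Lama1, a laminin chain of the same matrix, was at 623 to 820 CPM in siNC1 and 283 to 294 CPM in siVirma (-1.31). The 2 members that rose were small in size, Nid2 by 0.14 and Fn1 by 0.12, and 1 or both lost the call in 9 of the settings tried.

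Endocytic receptors behaved like the matrix genes. Lrp2 (megalin) was at 375 to 498 CPM in siNC1 and 146 to 164 CPM in siVirma (-1.50), and Cubn (cubilin), its partner, at 271 to 402 and 112 to 124 CPM (-1.50). Dab2, the adaptor that links these receptors to clathrin, was at 493 and 501, 452 and 430, and 571 and 595 CPM in siNC1 and at 147 to 173 CPM in siVirma (-1.67 ± 0.0482). None of the 3 overlapped between arms at any hour, where 25.0% of all genes tested were apart downward. Of 12 visceral endoderm transport genes tested (15 listed), 7 fell and 1 rose, with a median of -0.637. Mttp, which loads lipid onto apolipoprotein B, was lower by -1.01 and Apob itself by -0.90, while the apolipoprotein gene Apoe was lower by -0.40 and transferrin (Trf) was the member that rose, by 0.33.

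A wider set chosen from other libraries gave the same direction. Of 1140 genes with at least 4 times the level in PrE-T that they had in EPI-T cells, 57.0% were lower and 12.1% higher in siVirma, against 34.7% and 34.0% of all genes, with a median of -0.331 (-0.349 at 2 h). Of 972 genes at least 4-fold higher in EPI-T cells, 38.0% were higher and 30.8% lower, with a median of 0.0823.

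Core pluripotency factors changed little. Pou5f1 (Oct4) did not pass the test (-0.02 averaged over the hours, edgeR adjusted p = 0.7591, and -0.26 under ribosomal protein scaling, near the -0.248 of all genes), with 1440 to 2550 CPM in siNC1 and 1690 to 2350 CPM in siVirma. Nanog was at 162 to 193 CPM in siNC1 and 145 to 157 CPM in siVirma, a fall of -0.23, and Sox2 was lower by -0.19 (edgeR adjusted p = 0.000916). Of 20 naive pluripotency genes, 12 fell and 4 rose, with a median of -0.207. The falls included Tbx3 (-1.14), Nr5a2 (-1.05) and Klf4 (-0.79), and the largest rise was Dppa3 (1.19), a maternal and germline factor. Of 13 formative pluripotency genes, 8 rose and 4 fell, with a median of 0.366. Zic2 (0.89), Pou3f1 (0.86), Fgf5 (0.74) and Otx2 (0.46), which mark the exit from the naive state, rose, and the de novo DNA methyltransferase gene Dnmt3b fell by -0.56.

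**Figure D3:**
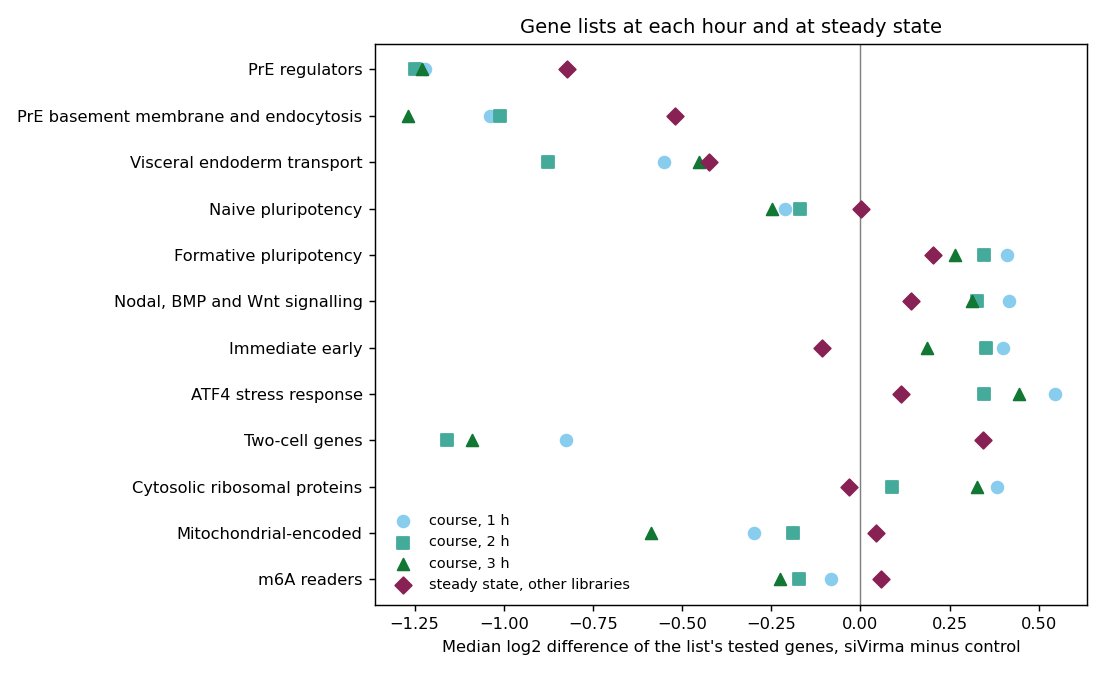
Median log2 difference (siVirma minus control) over the tested genes of each list; circles, squares and triangles are the 1, 2 and 3 h contrasts of the course and diamonds the steady-state libraries. PrE regulators lie between -1.22 and -1.25 at the 3 hours and at -0.823 at steady state, while ribosomal protein genes lie at 0.384, 0.09 and 0.328 in the course and at -0.0331 at steady state.

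The largest falls were again mostly PrE genes. Among genes averaging 3 or more in log2 CPM and with no overlap between arms at any hour (3361 of all tested genes, 24.9%, were apart upward and 3376, 25.0%, downward), the 12 with the largest falls included Pdgfra (-1.96), Kmt2c (-1.79), Amot (-1.73), Dab2 (-1.67), Bmper (-1.66), Slc26a10 (-1.63), Dram1 (-1.60), Sox7 (-1.57), Pdzd3 (-1.56), and Aqp8 and Ankrd33b (each -1.52). Of these 12, 10 belonged to the PrE-T set above, and Kmt2c belonged to neither that set nor the EPI-T set. Amot (angiomotin), which binds YAP and tight junctions, was at 184 to 254 CPM in siNC1 and 61.5 to 68.7 CPM in siVirma. Kmt2c, a histone H3 lysine methyltransferase with a very long mRNA, was at 28.9 and 31.5, 9.61 and 9.22, and 21.1 and 21.3 CPM in siNC1 and at 4.20 to 7.08 CPM in siVirma. Its siNC1 level at 2 h was under the other hours, so its difference ran from -2.18 at 1 h to -1.06 at 2 h.

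Genes that rose most had more varied roles. The 12 were Hes6 (1.91), Ddit4 (1.73), Pim2 (1.64), H1f10 (1.56), Acot1, Lefty1 and Cdc42ep5 (each 1.45), Cthrc1, Id3 and Pck2 (each 1.30), Mrc2 (1.28) and Plac9 (1.25). Hes6, a basic helix-loop-helix protein that counters Hes1, was at 16.5 and 16.5, 24.1 and 23.8, and 18.7 and 19.3 CPM in siNC1 and at 60.3 to 81.0 CPM in siVirma (edgeR adjusted p = 7.46e-23). Pim2, a serine/threonine kinase, was at 21.2 to 25.8 CPM in siNC1 and 69.6 to 78.9 CPM in siVirma. Neither gene overlapped between arms at any hour, which was a condition for entering the 12. Of the 12, Lefty1 belonged to the PrE-T set and Acot1 to the EPI-T set.

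Stress-response mRNAs rose together. All 22 genes listed for the ATF4 stress response, which adapts cells to amino acid shortage and endoplasmic reticulum stress, were higher over the hours, with a median of 0.442. At 2 h, 19 rose and none fell (edgeR; 6125 genes, 45.4%, called in either direction at 2 h), with a median of 0.348. Ddit4 (Redd1), an inhibitor of mTORC1, was at 49.1 and 45.1, 39.8 and 41.4, and 30.3 and 27.4 CPM in siNC1 and at 159 and 136, 127 and 132, and 110 and 109 CPM in siVirma. It fell with time in both arms and did not overlap between them. Pck2, a mitochondrial enzyme that makes phosphoenolpyruvate, rose by 1.30, Trib3 by 0.92 and Psat1, of serine synthesis, by 0.53. In the other course (siIgf2bp3 against siNC2) 13 of 21 of these genes rose and 3 fell, where 25.7% of 13404 genes were higher and 31.2% lower (56.8% called).

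Signalling targets and immediate early genes were higher too. Of 22 Nodal, BMP and Wnt genes tested (24 listed), 14 rose and 4 fell, with a median of 0.36. Lefty1, a secreted inhibitor induced by Nodal, was at 35.2 and 34.7, 37.9 and 33.3, and 21.7 and 18.2 CPM in siNC1 and at 113 and 103, 85.1 and 90.0, and 52.7 and 53.5 CPM in siVirma. Nodal itself dropped steeply in both arms, from 25.8 and 25.2 to 4.09 and 4.27 CPM in siNC1 and from 45.1 and 45.0 to 6.96 and 7.97 CPM in siVirma, with a difference of 0.83. Id3 and Id2, targets of BMP signalling, rose by 1.30 and 0.68, while Axin2, a Wnt feedback gene, fell by -0.77 and Bmp2, a PrE ligand, by -0.93.

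Of 26 immediate early genes tested (30 listed), 20 rose and 3 fell, with a median of 0.296. Rhob (1.10) and Jun (0.95) rose and Egr1 fell (-0.48). Of 18 FGF and ERK feedback genes, 6 rose and 8 fell (median -0.105), with Dusp5 up by 0.93 and the receptor Fgfr2 down by -0.60. Of 23 p53 targets, 8 rose and 8 fell, with a median of 0.0168. It was -0.0115 without the 3 h libraries and, under ribosomal protein scaling, -0.237 beside -0.248 for all genes. Of 18 interferon response genes tested (26 listed), 10 rose and 3 fell, with a median of 0.401. Bst2 (tetherin), the transcription factor gene Irf1 and Ifitm3 rose by 1.04, 1.06 and 0.51.

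Ribosomal protein and mitochondrial mRNAs differed between the arms by amounts that varied with the hour. Of 79 cytosolic ribosomal protein genes, 71 rose and none fell, with a median of 0.273. The count was 76 at 1 h (60.5% of all genes called there, 32.0% higher and 28.5% lower), 29 at 2 h (22.6% higher and 22.8% lower) and 68 at 3 h (57.4% called, 25.3% higher and 32.1% lower), with medians of 0.384, 0.09 and 0.328. Rps12 shows the form of this swing, with 1190 and 1080, 2090 and 2140, and 1770 and 1630 CPM in siNC1 and 1850 and 1660, 2400 and 2450, and 2670 and 2500 CPM in siVirma. In siIgf2bp3 against siNC2, where 25.7% of all genes were higher, all 79 rose, with a median of 0.773. Mitochondrially encoded mRNAs went the other way, with 9 of 10 lower (median -0.394) and mt-Nd6, the gene on the other strand, higher (0.39). They made up 2.22 to 2.23%, 1.28 to 1.42% and 1.83 to 1.85% of counts in siNC1 at the 3 hours. In siVirma they made up 1.66%, 1.09 to 1.12% and 1.07 to 1.08%. At 0 h the order was reversed, with 1.38 to 1.53% in siNC1 and 2.14% in siVirma. At 2 h 5 of 10 were lower and none higher (median -0.19). At steady state 4 of 12 tested were higher and 2 lower (median 0.0427). There mt-Nd6 was lower, at 632 and 616 CPM in siNC and 441 and 351 CPM in siVirma. Of 31 nuclear-encoded respiratory chain genes, 17 rose and 4 fell, with a median of 0.12. It was -0.0416 at 2 h and, under ribosomal protein scaling, -0.129 beside -0.248 for all genes.

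Most genes listed for mitosis and for cholesterol synthesis were lower over 1 to 3 h, but few were at steady state. Of 23 mitosis genes, 15 fell and 3 rose (median -0.213), with Kif11, the kinesin of spindle bipolarity, lower by -0.52. Of 22 replication and G1/S genes, 7 rose and 8 fell (median -0.0256). Of 21 cholesterol synthesis genes, 14 fell and 2 rose (median -0.29), led by Idi1 (-1.24) and with Hmgcs1 at -0.58. Of 12 DNA methylation genes, 9 fell and 1 rose (median -0.336), with the dioxygenase Tet2 lower by -1.17 and Tdg, the glycosylase that excises oxidised cytosines, by -0.88. Of 19 glycolysis genes, 12 rose and 4 fell, with a median of 0.104 (-0.145 under ribosomal protein scaling, beside -0.248 for all genes). Of 30 spliceosome and SR protein genes, 7 rose and 15 fell (median -0.0994). Of 15 core and linker histone genes tested (21 listed), 3 rose and 1 fell. At 2 h (22.8% of all genes lower) 11 mitosis genes fell and 2 rose (median -0.135). For cholesterol synthesis 14 fell and 2 rose at 2 h (-0.224), and for DNA methylation 7 fell and 1 rose (-0.201). At steady state 3 mitosis genes rose and 1 fell (median 0.0614). There 1 cholesterol synthesis gene fell and none rose (-0.123), and 3 DNA methylation genes fell and 1 rose (0.039).

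Genes of the 2-cell embryo, which TBLC are known for expressing, were lower throughout. All 13 tested (18 listed) fell, with a median of -1.12. Zscan4f was at 6.78 and 8.33, 6.16 and 5.94, and 8.45 and 9.11 CPM in siNC1 and at 1.79 to 3.12 CPM in siVirma (-1.61 ± 0.10, edgeR adjusted p = 3.032e-14). The arms did not overlap. The Zscan4, Usp17l and Tdpoz genes are near-identical copies whose reads the counting could split between members, so single values in this group are uncertain. At steady state the direction was not shared: of 12 genes tested 1 rose (Zscan4d, 0.59) and none fell, with a median of 0.344.

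Markers of other cell types were followed beside these groups. Of 17 fibroblast and feeder markers tested (18 listed), 8 rose and 4 fell, with a median of 0.167 (-0.0833 under ribosomal protein scaling, beside -0.248 for all genes). Shares of all genes higher and lower were 32.0% and 28.5% at 1 h, 22.6% and 22.8% at 2 h, and 25.3% and 32.1% at 3 h. Of the fibroblast and feeder markers, 7 rose and 4 fell at 1 h (median 0.222, all genes 0.0318). At 2 h, 7 rose and 3 fell (0.241, all genes 0.00567). At 3 h, 3 rose and 7 fell, and the median of these markers, -0.0548, lay near the -0.0417 of all genes. Their summed level was 238 to 326 CPM in siNC1 and 232 to 247 CPM in siVirma, and Lum never exceeded 0.165 CPM. Of 12 trophectoderm markers tested (15 listed), 7 rose and 2 fell (median 0.646). Their summed level was 136 to 170 CPM in siNC1 and 173 to 207 CPM in siVirma. The keratin genes Krt19 (1.25) and Krt18 (0.71) and Ascl2 (1.37) rose and Tead4 fell (-0.68). The keratin gene Krt8 overlapped between the arms, at 64.4 to 80.7 CPM in siNC1 and 64.2 to 71.7 CPM in siVirma. At steady state none of 11 trophectoderm markers tested rose and 2 fell (median -0.0761). Gata3, Elf5 and Prl3d1 were at 0 in some libraries and never above 0.476 CPM. Of 9 neural and mesoderm markers tested (12 listed), 3 rose and 2 fell. Their sum was 40.9 to 53.8 CPM in siNC1 and 55.8 to 68.9 CPM in siVirma. What other cell types contribute to the PrE difference was not tested.

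Readers of m6A and the machinery that degrades mRNA were also measured. Of 13 m6A readers, 3 rose and 7 fell, with a median of -0.107. Igf2bp3, a reader known for stabilising its targets, was at 28.6 to 42.5 CPM in siNC1 and 19.2 to 23.2 CPM in siVirma (-0.77 ± 0.0548, edgeR adjusted p = 5.418e-13). The 0 h libraries did not show that gap, with 20.3 and 17.9 CPM in siNC1 and 19.3 and 21.1 CPM in siVirma, and at steady state the log2 difference was -0.04 (adjusted p = 0.8675). The nuclear reader Ythdc1 fell by -0.53, Fmr1 by -0.58 and Ythdf3 by -0.45. Ythdf2, which brings the CCR4-NOT deadenylase to m6A-marked mRNA, was higher by 0.28, a call lost under ribosomal protein scaling (0.036, edgeR adjusted p = 0.6598, beside -0.248 for all genes). Of 39 deadenylation and decay genes, 24 fell and 10 rose (median -0.168), and of 19 cleavage and polyadenylation genes tested (20 listed), 12 fell and 5 rose (median -0.144). At steady state the decay list had 1 gene higher and 1 lower (863 of 12141 genes, 7.11%, called there). Of the 13 readers 2 were higher there and none lower (median 0.0582). The falls of Ythdc1, Fmr1 and Ythdf3 were not seen there. Ythdc1 was at 164 and 154 CPM in siNC and 157 and 177 CPM in siVirma. Fmr1 was at 136 and 130 against 138 and 139 CPM, and Ythdf3 at 190 and 196 against 207 and 192 CPM.

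RNAs bound by these readers were followed from the study's RNA immunoprecipitations (RIP), in which an antibody to the reader pulls down its RNAs for comparison with input. Of 1184 genes at least 2-fold enriched in Igf2bp3 RIP, 47.1% were lower in siVirma, with a median of -0.178, and of 1352 genes at least 2-fold depleted, 61.1% were higher, with a median of 0.227. At 2 h the medians shrank to -0.0532 and 0.094. At steady state the enriched genes had a median of -0.00178. The same genes split the control arm of the other course, where the departure of siNC2 at 2 h had medians of -0.356 for the enriched and 0.327 for the depleted genes. For Ythdf2 RIP the medians were -0.0572 for 2969 enriched genes and 0.148 for 2626 depleted genes. At 2 h they were 0.0101 and 0.0481 and at steady state 0.0262 and -0.0299. Each set thus had another sign at steady state, and the enriched set also at 2 h.

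The question of an actinomycin D course is whether mRNAs decay at another rate. Slopes over 1 to 3 h are log2 changes per hour relative to the centre of all transcripts, since no spike-in is described. In siNC1 5387 genes (39.9%) had a slope that passed the test, 2525 of them (18.7%) falling, and in siVirma 3944 (29.2%), 2491 (18.5%) falling. No gene passed for the difference of slopes (0 of 13501, edgeR quasi-likelihood test; lowest adjusted p = 0.674), with 497 genes at an unadjusted p under 0.05. DESeq2 called 0 as well, with 259 at an unadjusted p under 0.05. The median 95% interval of a difference reached 0.214 log2 per hour to either side in this straight-line fit.

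Slope estimates of the PrE regulators were similar in both arms. Gata6 had slopes of -0.66 in siNC1 and -0.71 in siVirma, a difference of -0.05 log2 per hour with a 95% interval from -0.18 to 0.07. Gata4 had -0.44 and -0.47, a difference of -0.03 (from -0.13 to 0.07). Sox17 had -0.95 and -0.92, a difference of 0.02 (from -0.22 to 0.27). Sox7 was the fastest of them at -1.31 and -1.38, a difference of -0.08 (from -0.30 to 0.15), and Pdgfra the slowest of these 5 at -0.22 and -0.24, a difference of -0.02 (from -0.22 to 0.18). The intervals of these 5 genes, each from the straight-line fit, reached no further than 0.30 log2 per hour from 0. Slopes are relative, and 46.3% of genes in siNC1 departed at 2 h from the mean of 1 and 3 h. The intervals therefore set no firm bound on differences of decay. Over the 12 PrE regulators the median slope was -0.705 in siNC1 and -0.664 in siVirma, 9 and 10 of 12 passing as falls. The 12 differences ran from -0.163 to 0.268 with a median of -0.0191, and all 12 intervals held 0.

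For these genes the arms already differed at 1 h, and the median gap was of similar size at 3 h. Basement membrane mRNAs are long-lived by comparison, with median slopes of 0.171 in siNC1 and 0.0687 in siVirma. Their differences ran from -0.175 to -0.012, all below 0, with a median of -0.0941 beside -0.0346 for all genes. Of the 17 intervals 13 held 0. Immediate early mRNAs were short-lived in both arms, with median slopes of -0.746 and -0.836 and 24 and 23 of 26 passing as falls. Sox2 fell by -1.05 and -1.14 per hour, and Pou5f1 rose in relative terms by 0.34 and 0.23. Virma mRNA had slopes of -0.02 and -0.14, a difference of -0.12 (from -0.29 to 0.05). Ythdf2 had -0.54 and -0.38, a difference of 0.17 (from 0.04 to 0.29), which did not pass over all genes (edgeR adjusted p = 1).

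**Figure D4:**
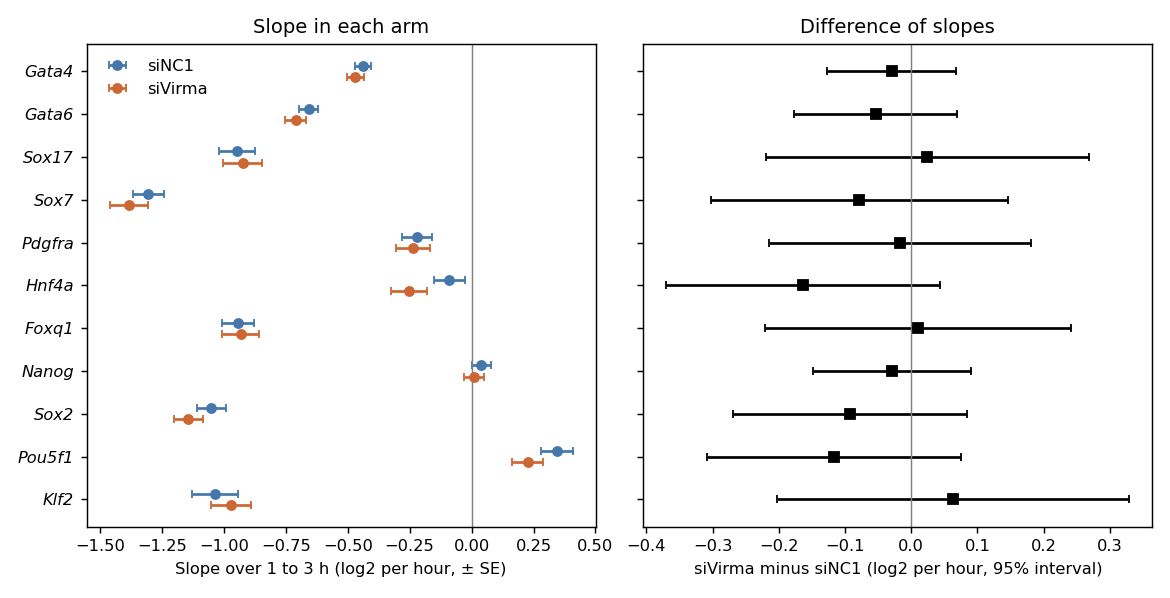
Slopes over 1 to 3 h in log2 per hour (left; points with SE bars, blue siNC1, orange siVirma) and their difference, siVirma minus siNC1, with 95% intervals (right) for 8 PrE regulators and Nanog, Sox2 and Pou5f1. Slopes span from below -1.3 (Sox7) to above 0.3 (Pou5f1), yet each of the 11 intervals of the difference contains 0.

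Because siNC1 departed at 2 h, the first and last hours were also contrasted directly, a comparison chosen after seeing the data. The difference between arms at 3 h differed from that at 1 h for 137 genes (1.01%), 15 higher (0.111%) and 122 lower (0.904%). This count and its split rested on the settings: it was 43 with RLE scaling, 36 with library totals and 31 with ribosomal protein scaling, with 34.9, 52.8 and 61.3% of calls higher in place of 10.9%, and 16 to 322 when single libraries were left out. None of the 12 PrE regulators passed. Of the 17 basement membrane and endocytosis genes 6 passed as lower, among them Dab2, Col4a2 and Sparc, but at most 1 did under any of these 3 scalings.

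Of 27 named genes that passed this contrast, 6 held under every setting that gave a value: Acta2, Tagln, Ccn2, Cdkn1a, Ndufa3 and mt-Co1. Acta2 (smooth muscle actin) was at 28.5 and 28.3, 37.5 and 37.3, and 50.8 and 51.2 CPM in siNC1 and at 16.6 to 20.7 CPM in siVirma. It rose hour by hour in siNC1 and was level in siVirma, so that the log2 difference went from -0.73 at 1 h to -1.38 at 3 h (edgeR adjusted p = 0.0009765). Tagln (transgelin), an actin-binding protein gene that like Acta2 is among the fibroblast markers, went the same way, from 31.8 and 30.9 to 58.0 and 56.0 CPM in siNC1 and from 20.8 and 19.0 to 24.7 and 23.4 CPM in siVirma. Ccn2, a YAP and TGF-beta target, began higher in siVirma (33.9 and 29.6 against 21.5 and 22.7 CPM) and ended lower (13.1 and 12.9 against 16.4 and 16.2 CPM). Cdkn1a, the p53-induced cell cycle inhibitor p21, began higher (77.1 and 75.9 against 50.2 and 47.2 CPM) and ended level (27.2 and 25.0 against 23.9 and 27.2 CPM).

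Genes that decay faster without any siRNA were described as a further reading. When genes were split into 5 equal classes by their slope in diffTBLC without siRNA, the median siVirma difference in level ran from -0.176 in the fastest class through -0.135, -0.0455 and 0.0569 to 0.247 in the slowest. At 2 h the 5 medians were -0.0494, -0.0569, -0.0204, 0.0125 and 0.109, smaller in size and without that order in the 2 fastest classes. The median difference of slopes ran from 0.0031 to -0.0483 over the same classes. The departure of the siNC2 arm at 2 h ordered the classes as well, from -0.351 to 0.323, and its part in the siVirma levels was not tested.

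The steady-state libraries give the same knockdown without actinomycin D and with other controls. Of 12141 genes tested there, 422 (3.48%) were higher and 441 (3.63%) lower. Among the 12005 genes tested in both tables, 341 of 438 lower at steady state (77.9%, and 7.57% of the 4503 lower in the course) were also lower in the course, where 37.5% of these genes were lower. Of 421 higher at steady state, 215 (51.1%, and 5.36% of the 4010 higher in the course) were also higher, and 142 (33.7%) were lower in the course. The correlation of the 2 sets of log2 differences over 12005 genes, which are not independent, was 0.331 (Spearman 0.253). Of changes of at least 2-fold at steady state, 21 of 25 falls were lower in the course and 27 of 29 rises were higher.

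The PrE programme was part of what both showed. At steady state 9 of 12 PrE regulators were lower and none was higher (edgeR; 7.11% of genes called), with a median of -0.823. Gata6 differed by -1.11, Gata4 by -0.86, Sox17 by -0.94, Sox7 by -0.99 and Pdgfra by -0.98. Of the 17 basement membrane and endocytosis genes 14 fell and 1 rose, with a median of -0.521. The steady-state values were smaller than those of the course for Gata6, Gata4, Sox7 and Pdgfra and larger for Sox17, with no test across the tables. Of the 12 largest falls in the course 10 were lower at steady state. Kmt2c (-0.08, edgeR adjusted p = 0.5777) did not pass. Of the 12 largest rises 6 were higher at steady state, and 11 had the same sign. Of 22 ATF4 genes 3 rose, of 27 immediate early genes tested none rose and 6 fell, and of 79 ribosomal protein genes 2 rose and 4 fell.

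**Figure D5:**
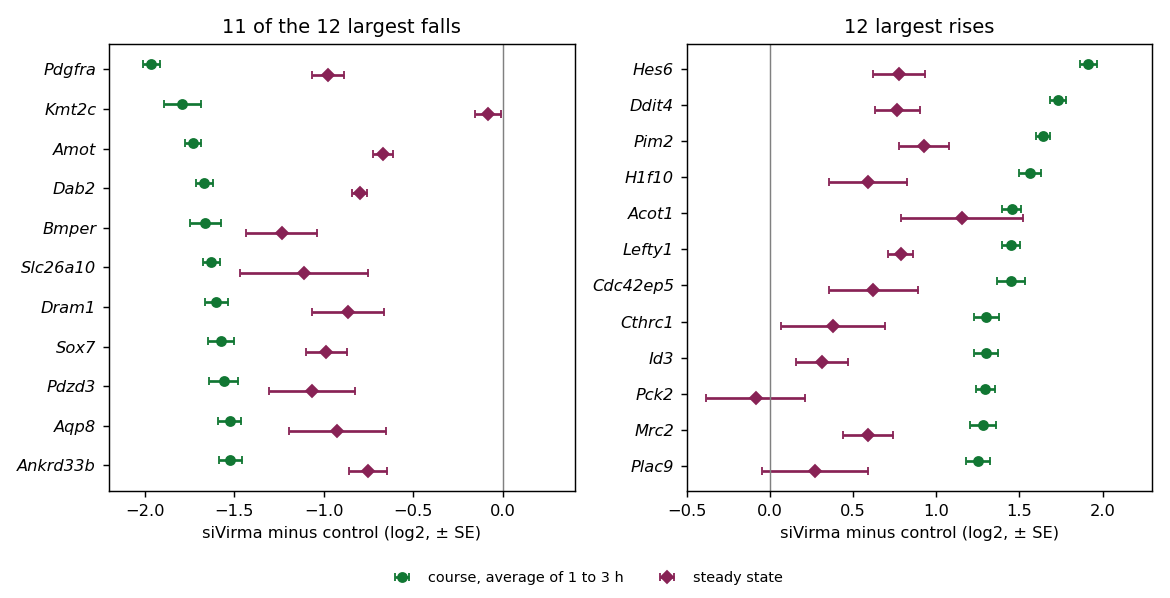
Log2 difference, siVirma minus control, with SE bars, for 11 of the 12 largest falls (left) and 12 largest rises (right) of the course; green circles are the average of 1 to 3 h of actinomycin D and purple diamonds the steady-state libraries. The falls sit between -1.96 and -1.52 in the course, and at steady state Kmt2c alone among them lies near 0, at -0.08.

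In the other knockdown course, values for the same genes are set side by side, without a test of the difference. Of 13404 genes tested in siIgf2bp3 against siNC2, 31.2% were lower and 25.7% higher (56.8% called), with a median of -0.0215. Of 12 PrE regulators 8 fell and 2 rose, with a median of -0.251. Gata6 differed by -0.38, Gata4 by -0.40, Sox17 by -0.03, Sox7 by -0.36 and Pdgfra by -0.83. Of the 17 basement membrane and endocytosis genes 12 fell and 1 rose (median -0.571). Of 14 2-cell-embryo genes tested there 1 rose and 3 fell, in both directions under the shares of all genes.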

How the data were processed

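The authors deposited raw read counts per gene symbol, whole numbers in each library, for 21812 symbols, and 21144 of these (96.9%) matched the gene name table. The genome build was mm39, and STAR 2.7.11b, Subread, Trim Galore, FastQC 0.12.1 and DESeq2 are named, per the submitters' processing notes. The labels name 2 stranded library kits without saying which was used where.

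Counts of the 12 libraries were scaled by TMM, filtered with filterByExpr on the 6 groups of arm and hour (13501 genes left) and fitted by edgeR's quasi-likelihood method (edgeR 4.0.16, R 4.3.3) with Benjamini-Hochberg adjustment over all genes and a threshold of 0.05. The averaged difference came from arm plus hour as a factor, hour contrasts from 6 group means, and slopes from an intercept and slope for each arm. The steady-state, siIgf2bp3, RIP and PrE-T tables were fitted on their own. Scripts were tested on simulated counts.

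Named genes were 15 anchors, members of 29 gene lists, and the 12 largest rises and falls. Those rises and falls were without overlap at any hour and averaged 3 or more in log2 CPM. The 10 largest changes each way that passed the contrast of 3 h with 1 h, chosen after seeing the data, were also named. Members and lists were chosen with earlier results of these data known. Replicate numbers did not pair libraries (correlations of replicate differences from -0.043 to 0.0489). Alternatives were DESeq2 1.42.0, RLE, library totals, ribosomal protein scaling, no filter, all 16 libraries, a replicate block and leaving out each library. Leaving out an hour and the contrasts between single hours were added after seeing the data. Values of 2 single genes that count among the members are not reported here.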

Additional observations from a re-analysis of the deposited data

Results flagged for a closer look

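The difference between the arms at 2 h departed from the mean of 1 and 3 h for 2500 genes (edgeR adjusted p under 0.05), a test of the difference between hours. For the genes below, the difference between arms at 3 h differed from that at 1 h, and values are that change per hour on the log2 scale, in edgeR's fit of 6 group means with 2 libraries each.

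Among genes that moved down in siVirma relative to siNC1, Ccn2 changed by -0.43, Acta2 by -0.32 and Tagln by -0.30. The p53 target Cdkn1a changed by -0.30, the respiratory chain subunit genes Ndufa3 by -0.34, mt-Co1 by -0.21 and mt-Nd5 by -0.19. These kept their call under every setting with a value, except mt-Nd5. The BMP modulator Bmper changed by -0.36, Dab2 by -0.18, Spry4, an ERK feedback inhibitor, by -0.23, Rbm15 by -0.21 and the splicing factor gene Srsf5 by -0.13. Zbtb43 changed by -0.40, Rnf169 and Tlcd1 by -0.30 each and Plbd1 by -0.29.

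Others moved up in siVirma relative to siNC1. Lrig3 changed by 0.41, Polr1has by 0.36, the BMP target Id3 by 0.26, the mRNA export factor gene Nxt1 by 0.25, Tanc1, Dnajb1 and Arl14ep by 0.22 each, Abt1 by 0.21, Atg101 and Taf5l by 0.19 each and Ythdf2 by 0.17. Apart from Acta2, Tagln, Ccn2, Cdkn1a, Ndufa3 and mt-Co1, each lost its call in at least 1 alternative.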

How the results depend on the processing

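The averaged difference between arms called 7874 to 9758 genes over all settings, against 9270, with no gene changing sign among calls shared by any setting other than ribosomal protein scaling, and with 8925 to 9252 when single libraries were left out. Without the 1 h libraries the count was 7874 and without the 3 h libraries 8144. Leaving out single libraries gave 6874 to 8276 at 1 h, 4735 to 6286 at 2 h and 6546 to 7827 at 3 h. With a replicate block the counts were 9236 on average, 8318, 6371 and 7895 at the 3 hours, and 0 for the slope difference. The slope difference stayed at 0 in every planned setting, and contrasts of single hours, added after seeing the data, called 137 (3 h against 1 h), 2055 (2 h against 1 h) and 1928 (3 h against 2 h). The 3 h against 1 h count became 20 with DESeq2, 43 with RLE, 36 with library totals, 31 with ribosomal protein scaling, 379 with the replicate block and 16 to 322 without single libraries. The steady-state count was 271 with DESeq2 and 749 with only the siNC and siVirma libraries, against 863. Ribosomal protein scaling reversed Mettl14 (-0.23, edgeR adjusted p = 0.005346), Wtap (-0.19, 0.008888), Rbm15 (-0.066, 0.4235) and H1f0 (-0.15, 0.01558). Of 137 named genes, 9 changed call or sign in some setting. The cause of these changes was not tested. The median 95% interval of a slope difference reached 0.214 log2 per hour to either side in the straight-line fit, and the contrast of 3 h with 1 h on the same libraries passed smaller ones, such as Srsf5 (-0.13).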
